A study of Homo sapiens with 238 samples.

Results

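Cancer-testis antigen genes are genes whose expression among healthy adult tissues is largely confined to the germ cells of the testis, and which many tumours switch on. Most of them sit on the X chromosome in families of close copies, such as MAGEA, MAGEB, MAGEC, GAGE, PAGE, SSX, XAGE and CT45A, and their promoters are known to be kept shut in other tissues by methylation of cytosine in CG dinucleotides. K562, a human erythroleukemia cell line, is one of the tumour lines that express many of these genes, which makes the families a readout of which genes a clone of that line has kept on or off. The genes were chosen by symbol among protein-coding genes, as those starting with MAGEA, MAGEB, MAGEC, GAGE, PAGE, XAGE, CT45A or CTAG or with SSX and a digit, plus CT55 and PRAME. The rule found 79 of the 62696 genes counted. Of these, 72 belong to the named families, 71 on the X chromosome and PRAME on chromosome 22. The other 7 only share letters with a family name (6 CTAGE genes and SSX2IP) and are not counted as family genes below.

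The study asked whether G-quadruplexes, 4-stranded folds of guanine-rich DNA known as G4s, act in globin enhancers. Poly(A) RNA was sequenced in 62 libraries of 12 K562 lines. In the α series, αMut1 (n = 7) and αMut2 (n = 4) are homozygous for mutations of the G4 in the α-globin enhancer HS-40, αRes1, αRes2 (n = 8 each), αRes3 and αRes4 (n = 4 each) were made from αMut1 cells by inserting the G4 of MYC there, and αWT (n = 8) is unedited. In the β series, βMut1 and βMut2 (n = 4 each) carry a mutated G4 in the β-globin enhancer HS2, WT-HS3Δ (n = 4) lacks the enhancer HS3, βMut-HS3Δ (n = 3) has both the mutated G4 and the HS3 deletion, and βWT (n = 4) is unedited. Lines were edited with Cas9, or with a Cas9 nickase for HS3, and grown from single sorted cells, so each edited line is 1 clone. The edit and whatever else differs between single cells of K562 cannot be told apart in a comparison of 1 clone with its unedited line. Nothing states that libraries of a line came from separate cultures, so p-values measure the spread between libraries of that line, which may be technical.

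The promoters are shown for 5 genes on which the results turn, as the 250 bases before the RefSeq start on the strand of the gene in GRCh38.p14, with each CG dinucleotide, the site of promoter methylation, in capitals. PAGE5 (chrX:55220096-55220345, plus strand, 9 CG) was low in both clones that lack HS3. CT55 (chrX:135171399-135171648, minus strand, 8 CG) was low in 4 of the 6 α clones. MAGEA8 (chrX:149880933-149881182, plus strand, 8 CG) had no count in αRes3 and αRes4. MAGEB16 (chrX:35798092-35798341, plus strand, 11 CG) was higher in αRes3 than in αWT. PRAME (chr22:22559266-22559515, minus strand, 9 CG) was expressed in all lines. The RefSeq starts of MAGEA8 and PRAME lie inside the gene as GENCODE bounds it, so their windows hold some transcribed bases.
PAGE5: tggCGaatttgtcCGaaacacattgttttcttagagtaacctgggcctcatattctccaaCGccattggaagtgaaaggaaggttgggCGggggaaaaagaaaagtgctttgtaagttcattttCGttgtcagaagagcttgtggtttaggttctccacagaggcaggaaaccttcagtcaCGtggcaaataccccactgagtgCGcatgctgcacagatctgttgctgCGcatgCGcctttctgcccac
CT55: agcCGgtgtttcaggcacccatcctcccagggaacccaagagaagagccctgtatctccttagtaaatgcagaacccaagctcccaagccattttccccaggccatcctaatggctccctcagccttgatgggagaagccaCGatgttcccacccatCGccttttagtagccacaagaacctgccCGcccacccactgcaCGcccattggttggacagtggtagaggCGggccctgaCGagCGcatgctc
MAGEA8: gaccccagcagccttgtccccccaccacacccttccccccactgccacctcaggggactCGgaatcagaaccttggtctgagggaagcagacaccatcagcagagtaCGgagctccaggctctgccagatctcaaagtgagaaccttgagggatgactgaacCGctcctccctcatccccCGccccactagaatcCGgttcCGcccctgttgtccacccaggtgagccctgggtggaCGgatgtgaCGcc
MAGEB16: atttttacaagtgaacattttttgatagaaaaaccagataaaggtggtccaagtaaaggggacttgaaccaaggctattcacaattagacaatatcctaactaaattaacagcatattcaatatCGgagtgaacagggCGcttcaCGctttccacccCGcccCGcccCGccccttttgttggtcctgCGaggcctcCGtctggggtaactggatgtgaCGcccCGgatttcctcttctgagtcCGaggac
PRAME: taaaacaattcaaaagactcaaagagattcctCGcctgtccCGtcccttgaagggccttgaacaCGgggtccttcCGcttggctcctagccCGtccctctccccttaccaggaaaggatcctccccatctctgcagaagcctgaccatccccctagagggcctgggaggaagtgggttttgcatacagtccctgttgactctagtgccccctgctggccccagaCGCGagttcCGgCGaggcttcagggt

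Of the 72 family genes, 58 had a promoter in the RefSeq table. Their 250-base windows held a median of 8 CG (range 1 to 18), against 11 over 34943 windows of all genes. Some windows lie far from the GENCODE start, as that of MAGEA11 with the 18 CG (23832 bp) and that of GAGE12B (188705 bp). Windows of close copies were each counted, among them those of most GAGE genes at 8 CG. Windows with 5 or fewer CG were 13 of the 58, against 38.2% of all windows. The letters GGGCGG, the core of an SP1 motif, stood on either strand in 12 of the 58, against 42.5% of all windows. The median was 8 CG both in the 23 windows of genes expressed in some line and in the windows of the other family genes. DNA methylation was not measured in these libraries.

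Library totals ran between 4270215 and 48671570 counts. The counts of a gene are given as CPM, counts per 1000000 library counts, after scaling libraries by trimmed means, within each series, so a level in the α series and one in the β series are on separately set scales. A line mean of at least 1 CPM is called expressed, and one of at most 0.1 CPM near silent. All 10 markers of K562 cells were expressed in every line. None of 10 germ cell markers was, and their summed level was at most 0.535 CPM in any library. Of 7 lymphoid markers 0 to 3 were expressed in a line (summed level 0.754 to 10.4 CPM in single libraries), and of 8 epithelial and fibroblast markers 2 to 3 (summed level 53.3 to 180.9 CPM). Some of these markers were called in the same comparisons as family genes. COL1A1, a collagen gene, had 48.8 ± 0.738 CPM in αRes3 (n = 4), against 2.56 ± 0.673 CPM in αWT (SD, n = 8; log2 fold change 4.25, adjusted p = 3.66e-09), and COL1A2 had 36.3 ± 7.44 CPM in βMut-HS3Δ (n = 3), against 2.00 ± 0.567 CPM in βWT (SD, n = 4; 4.19, adjusted p = 3.21e-12). EPCAM, an epithelial adhesion protein, was lower in αRes3 (-1.43) and αRes4 (-1.15) than in αWT and higher in WT-HS3Δ (0.62) and βMut-HS3Δ (0.57) than in βWT. NKG7, a granule protein of lymphocytes, was higher in αMut1 (3.26) and αRes1 (3.51), at line means of 3.01 and 3.65 CPM against 0.314 CPM in αWT. The part of other cells in the results was not tested.

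In the α series the libraries of a line did not always stand together, and their replicate numbers mark where they part. Libraries with numbers 5 to 8 (5 to 7 in αMut1) differed from those with numbers 1 to 4 by at least 2-fold with no overlap in 15 of the 28 tested family genes in αMut1, against 10.5% of all 18247 genes tested. The same held for 15 of 28 genes in αRes1 (16.2% of all genes), 4 in αRes2 (4.15%) and 5 in αWT (7.84%). MAGEB2, a member of the MAGEB family, had 118 to 127 CPM in αMut1 numbers 5 to 7 and 32.9 to 36.7 CPM in αMut1 numbers 1 to 4. In αRes1 its order was the other way round, with 20.1 to 21.4 CPM in numbers 5 to 8 and 138 to 160 CPM in numbers 1 to 4. CT55, a testis-expressed gene of its own family, had 5.49 to 6.47 CPM in αMut1 numbers 5 to 7 and 0.332 to 0.863 CPM in numbers 1 to 4. In αRes1 it had 0.548 to 1.05 CPM in numbers 5 to 8 and 6.04 to 8.75 CPM in numbers 1 to 4. So the libraries labelled αRes1 with numbers 1 to 4 lay nearer to αMut1 numbers 5 to 7 than to αMut1 numbers 1 to 4 in 20 of the 28 genes, against 55.7% of all genes tested. Those labelled αRes1 with numbers 5 to 8 lay nearer to αMut1 numbers 1 to 4 in 21 of the 28, against 47.8% of all genes. What parts these libraries is not given in the labels. Groups follow the labels, and whether sets of αMut1 and αRes1 libraries carry exchanged labels was not tested, so each value of αMut1, of αRes1 or of a clone against αMut1 holds for the libraries as labelled. Values by number are given below for part of the genes where that changes them, and not for all.

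Libraries parted in a further measure that the groups do not explain. Summed over 5 pseudoautosomal genes, which lie on both sex chromosomes, 16 libraries had 4328 to 19118 counts and the other 46 had at most 2. The 16 were all libraries of αRes3 and αRes4 and numbers 5 to 8 of αRes1 and αRes2, so αRes1 numbers 5 to 8 differed in this from the αMut1 libraries they resembled. Of 18 genes with at least 10 counts on average in the 16 libraries and at most 2 in any other, 17 were pseudoautosomal and 0 were family genes. The reverse held for 21 genes, of which 1 was a family gene, CTAG2. It had 7 counts over the 16 libraries and 23307 over the other 46, among which those of αMut1 and αMut2 were low in CTAG2 as well. The reference or settings behind the 2 kinds of library are not given in the sources used here. Since all libraries of αRes3 and αRes4 and none of αWT or αMut1 were of that kind, a difference between the kinds of library cannot be told apart from one between these lines. The αRes2 clone held both kinds, and there MAGEA1 was at 52.3 to 64.3 CPM in numbers 5 to 8 and 62.9 to 84.6 CPM in numbers 1 to 4, and MAGEA8 at 0.990 to 1.41 and 0.971 to 2.20 CPM, with overlap in both genes. Other genes parted, 4 of 28 by at least 2-fold without overlap, as GAGE1 at 41.6 to 43.8 CPM in numbers 5 to 8 and 73.5 to 112 CPM in numbers 1 to 4. In αRes1, which also held both kinds, 15 of 28 did. The part of the kind of library in these differences was not tested.

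**Figure D1:**
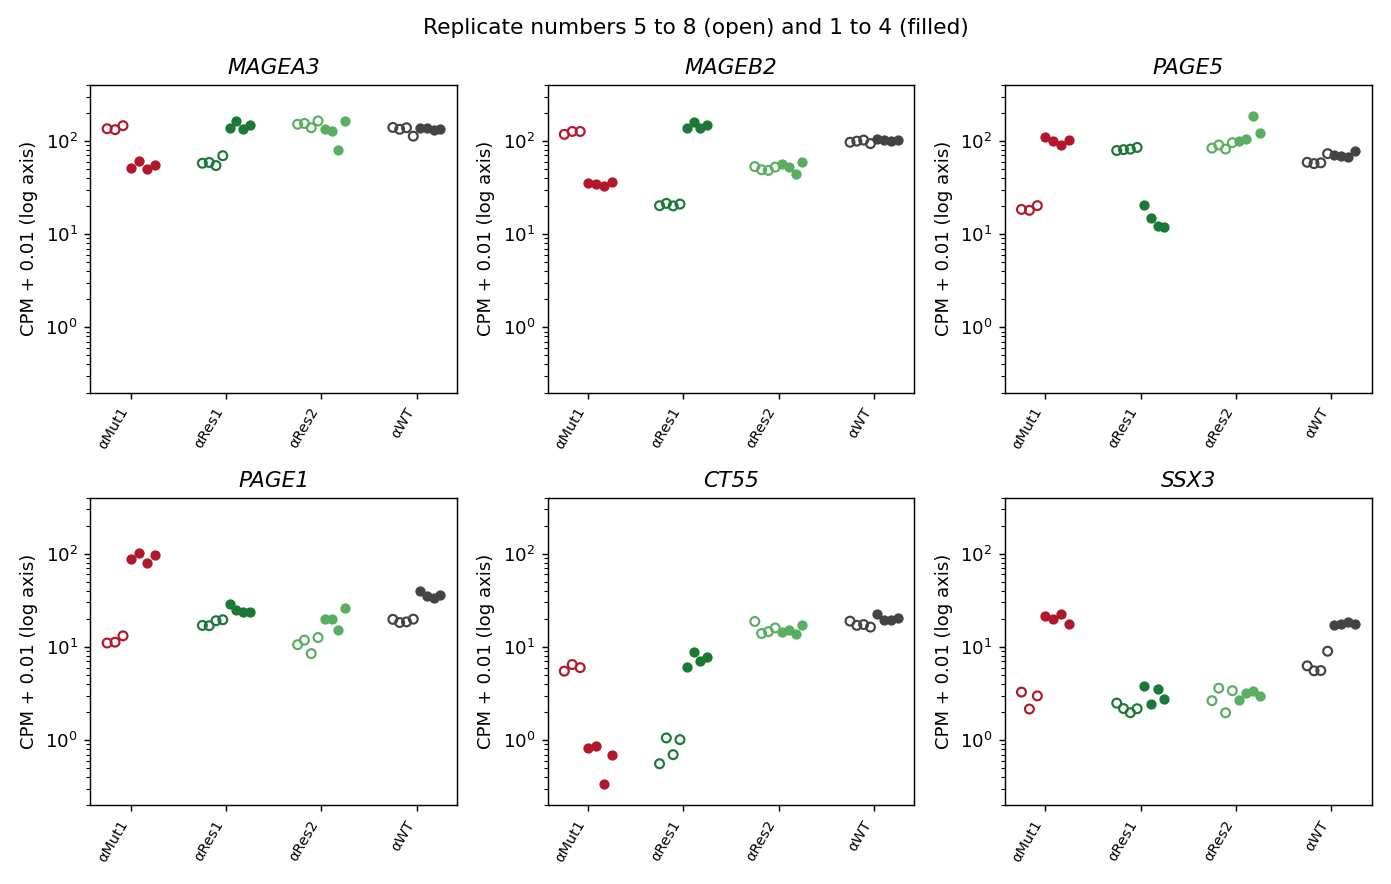
Level of 6 family genes in single libraries of the 4 lines with replicate numbers above 4, in CPM plus 0.01 on a log axis, with numbers 5 to 8 as open circles on the left of each line and numbers 1 to 4 as filled circles on the right. MAGEB2, PAGE5 and CT55 part the libraries of αMut1 and of αRes1 in opposite directions, as in the 118 to 127 CPM of MAGEB2 in αMut1 numbers 5 to 7 against 32.9 to 36.7 CPM in numbers 1 to 4.

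Of the 72 family genes, 16 were expressed in all 12 lines, 11 in some lines and 45 in none, and single lines expressed between 20 (αMut2 and βMut-HS3Δ) and 24 (βMut1). Expression was spread over most families. It took in 4 of 13 GAGE genes, 6 of 12 MAGEA, 4 of 11 MAGEB, 2 of 3 MAGEC, 5 of 6 PAGE, 2 of 8 SSX, 1 of 9 CT45A and 1 of 3 CTAG genes, together with CT55 and PRAME. None of the 5 XAGE genes reached 1 CPM in a line, the highest line mean being 0.840 CPM. The 19 family genes with no count in any library cannot all be called silent. A 51-base stretch is called unique here where no annotated transcript of another gene holds it, and copies elsewhere in the genome were not searched. By that measure, 17 of the 19 have under 5% of their stretches unique. How featureCounts handled a read with several matches is not stated. MAGEB5, whose stretches are 100% unique, was at 0 counts in all 62 libraries. MAGEA9, at 5.78% unique, was the other exception. Among the 27 expressed genes the median was 86.8% unique, and the levels of CT45A10 (29.6%), GAGE13 (7.24%), GAGE2A (14.4%), MAGEA3 (44.6%) and MAGEA6 (44.2%) may hold or lack reads of their copies. Over the 12 lines, the lowest and highest line means were 29.3 and 112 CPM for GAGE1, 25.2 and 87.7 CPM for GAGE2A, 2.70 and 8.67 CPM for GAGE10, 3.85 and 13.7 CPM for GAGE13, 4.47 and 62.7 CPM for CT45A10, 40.8 and 174 CPM for MAGEA6 and 53.6 and 169 CPM for MAGEA12.

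**Figure D2:**
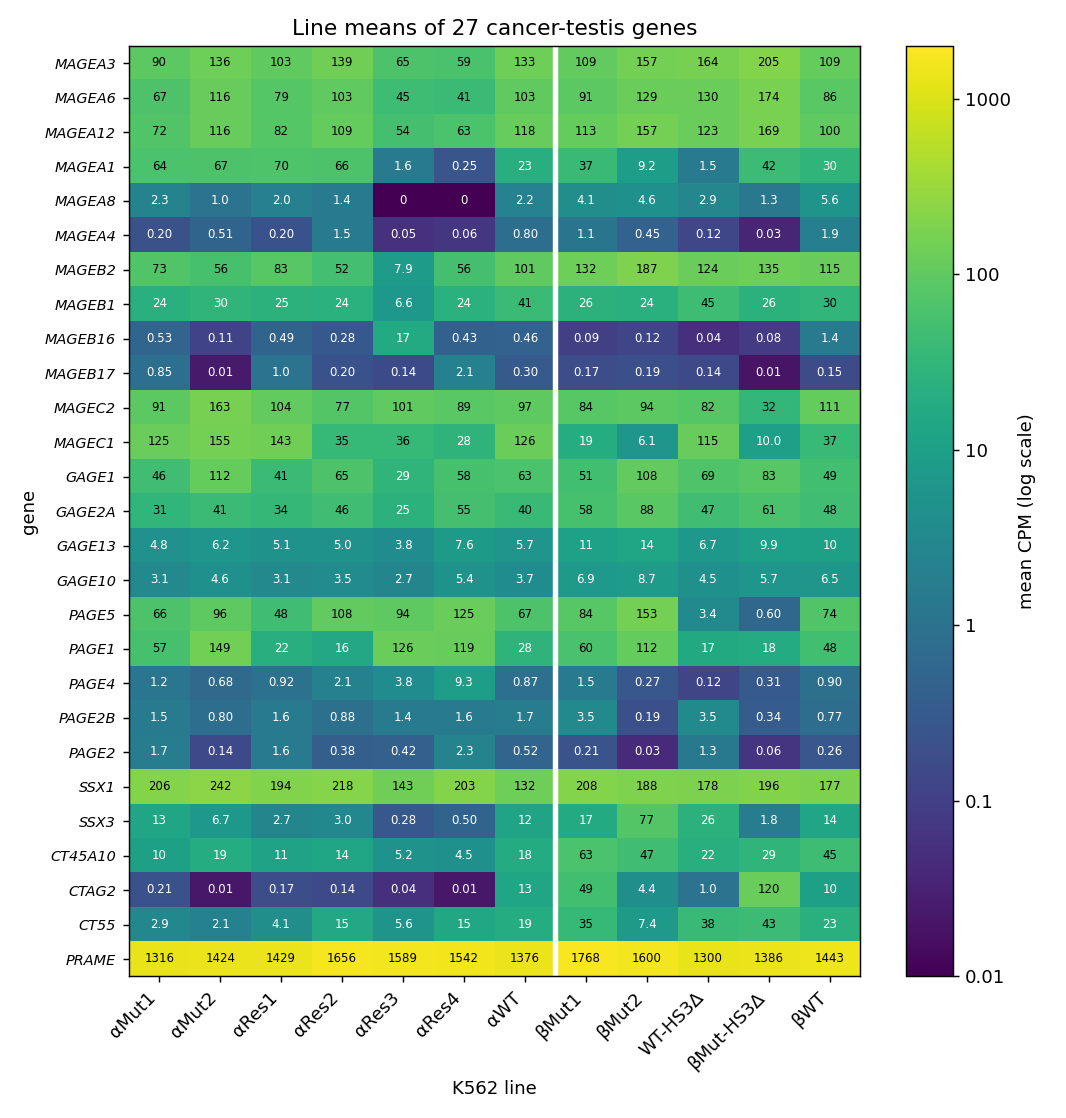
Line means of the 27 family genes expressed in at least 1 line, in CPM as numbers and as colour on a log scale, with the 7 α lines left of the white bar and the 5 β lines right of it. Genes such as PRAME and MAGEA3 were on in all 12 lines, while CTAG2 was below 1 CPM in the 6 α clones only and MAGEA8 at 0 in αRes3 and αRes4.

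PRAME, a substrate receptor of a cullin ubiquitin ligase and a target of tumour vaccines, had the highest level per kilobase of exon. Its line means lay between 1300 CPM (WT-HS3Δ) and 1768 CPM (βMut1), and per kilobase it had 361 CPM in αWT and 379 CPM in βWT. The next per kilobase was SSX1, a nuclear protein whose gene is fused to SS18 in synovial sarcoma, with 108 CPM per kilobase in αWT and 145 in βWT, followed by PAGE5 with 88.8 and 98.5. PRAME passed the change threshold, an absolute log2 fold change above 0.5 at an adjusted p below 0.05 in edgeR, in no comparison. Its largest log2 fold change was -0.35 (SE 0.05, adjusted p = 9.49e-06) in βMut-HS3Δ against βMut1. It shares 19 bases of exon with a long noncoding RNA on the other strand, and strand use in counting is not stated.

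Each α clone was compared with αWT, and family genes moved in both directions in all 6. In αMut1 13 of 28 tested genes were called (against 22.8% of all genes), 5 of them higher (15.4% of all genes) and 8 lower (7.35%). In αMut2 12 were called (16.1%), 5 higher (6.62%) and 7 lower (9.43%). In αRes1 11 were called (20.4%), 4 higher (13.0%) and 7 lower (7.41%). The αRes2 clone had 12 (18.7%), 4 higher (12.0%) and 8 lower (6.67%). The largest numbers were 19 in αRes3 (39.0%), 3 higher (20.1%) and 16 lower (18.9%), and 17 in αRes4 (40.5%), 6 higher (23.3%) and 11 lower (17.2%). The median log2 fold change of the 28 genes was -0.98 in αRes3, against -0.04 over all genes. In the other α clones it lay between -0.31 and 0.04. With libraries of numbers 1 to 4 alone, 18 genes changed in αMut1 (33.6% of all genes), 12 of them among the 13, and with numbers 5 to 8 alone 19 did (24.7%), 8 of them among the 13. The 28 genes passed a filter on mean counts, which favours genes that are on somewhere, so their shares describe these genes and not the families. All 6 comparisons share the αWT libraries.

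CTAG2, the gene of the LAGE-1 antigen and a close relative of NY-ESO-1, was at most 0.588 CPM in all libraries of the 6 α clones, and near silent by its line mean in αMut2, αRes3 and αRes4. It lies at chrX:154651972-154653579. In the edited lines its highest level was 0.588 CPM in αMut1, 0.0255 in αMut2, 0.433 in αRes1, 0.273 in αRes2, 0.0837 in αRes3 and 0.0477 in αRes4. In αWT it had 10.8, 13.0 and 14.8 CPM (lowest, median and highest of 8 libraries). No edited library came near an αWT library. Against αWT the log2 fold change was -5.89 (SE 0.48) in αMut1, -9.45 (0.83) in αMut2, -6.07 (0.47) in αRes1, -6.43 (0.51) in αRes2, -8.15 (0.81) in αRes3 and -9.56 (0.90) in αRes4, with adjusted p between 1.75e-13 and 3.73e-11. The residual level also differed between the number sets, at 0.362 to 0.588 CPM in αMut1 numbers 5 to 7 and 0 to 0.0540 in numbers 1 to 4, while in αRes1 it was 0 in numbers 5 to 8 and 0.217 to 0.433 in numbers 1 to 4. In αRes2 the residual level was 0 to 0.0815 CPM in numbers 5 to 8 and 0.129 to 0.273 CPM in numbers 1 to 4. Numbers 5 to 8 of αRes1 and αRes2 were of the kind with pseudoautosomal counts. The fold change in αMut1 was -4.86 with numbers 5 to 8 and -9.70 with numbers 1 to 4.

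MAGEA1, a MAGE antigen known from melanoma, moved both ways among the α clones. It lies at chrX:153179284-153183880, and 99.4% of its 51-base stretches are unique among annotated transcripts. It had 1.25, 1.33, 1.60 and 2.18 CPM in αRes3 and 0.387, 0.169, 0.143 and 0.312 CPM in αRes4, against a lowest, median and highest of 11.1, 21.9 and 35.7 CPM in αWT. All 8 libraries of these clones lay under all 8 of αWT, by a log2 fold change of -3.87 (SE 0.33, adjusted p = 5.26e-13) in αRes3 and -6.43 (SE 0.42, adjusted p = 4.37e-16) in αRes4. The other 4 α clones had more MAGEA1 than αWT. Line means were 64.3 ± 17.2 CPM in αMut1 (SD, n = 7), 67.4 ± 4.55 in αMut2 (n = 4), 69.8 ± 4.76 in αRes1 (n = 8) and 66.2 ± 12.0 in αRes2 (n = 8), against 22.6 ± 11.2 CPM in αWT (n = 8). Their log2 fold changes lay between 1.51 and 1.63, and no library of the 4 overlapped αWT. Against αMut1, the line from which they were made, αRes3 and αRes4 were lower by a log2 fold change of -5.38 (SE 0.34, adjusted p = 7.78e-16) and -7.94 (SE 0.43, adjusted p = 5.51e-18).

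MAGEA8, another MAGEA gene on distal Xq (chrX:149881141-149885835), had no count in any of the 8 libraries of αRes3 and αRes4. In αWT it had a lowest, median and highest of 1.54, 2.30 and 2.91 CPM, or 609 counts over the line. Set against a floor of 3 counts over the 4 libraries of a clone, it was at least 54.4-fold lower in αRes3 and at least 56.2-fold lower in αRes4 than in αWT. It was called in both (adjusted p = 5.06e-14 in αRes3 and 3.75e-14 in αRes4). Against αMut1 the bounds were at least 58.8-fold and at least 60.7-fold. αMut2 was also lower, with 0.941, 1.08, 0.900 and 1.17 CPM and a log2 fold change of -1.12 (SE 0.25, adjusted p = 0.00103), and αRes2 by -0.55 (SE 0.20, adjusted p = 0.028). The call in αRes2 was lost without replicate 3, the shallowest library of the series (-0.50, adjusted p = 0.0538). It also depended on the number set, as the value was 0.06 (adjusted p = 0.798) with numbers 1 to 4 alone. In numbers 5 to 8 αRes2 had 0.990 to 1.41 CPM and αWT 2.26 to 2.91 CPM.

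SSX3, of the SSX family of nuclear proteins, also fell below 1 CPM in αRes3 and αRes4. It had 0.0890, 0.266, 0 and 0.754 CPM in αRes3 and 0.678, 0.394, 0.524 and 0.401 CPM in αRes4, against a lowest, median and highest of 5.54, 13.1 and 18.4 CPM in αWT. The groups did not overlap, and log2 fold changes were -5.71 (SE 0.70, adjusted p = 5.61e-09) and -4.59 (SE 0.61, adjusted p = 4.19e-08). αRes1 and αRes2 were lower than αWT as well, with line means of 2.65 ± 0.661 and 2.99 ± 0.537 CPM against 12.2 ± 6.08 (SD, n = 8 each) and log2 fold changes of -2.18 and -2.04. αMut2 was not called with all libraries. It was called lower against αWT numbers 1 to 4 alone (-1.42, adjusted p = 6.52e-09) and with a replicate block (-1.30, adjusted p = 0.0106). In αWT itself numbers 5 to 8 had 5.54 to 8.99 CPM and numbers 1 to 4 had 17.2 to 18.4. In αMut1 numbers 5 to 7 had 2.15 to 3.27 CPM and numbers 1 to 4 had 17.7 to 22.4, so that the fold change of αMut1 against αWT was 0.07 with all libraries, -1.23 with numbers 5 to 8 and 0.22 with numbers 1 to 4.

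The MAGEB genes set αRes3 apart in both directions. MAGEB16 (chrX:35798342-35803772) rose in αRes3 to 17.2, 15.8, 16.8 and 18.7 CPM, against 0.237, 0.417 and 0.719 CPM (lowest, median and highest) in αWT, a log2 fold change of 5.22 (SE 0.33, adjusted p = 8.25e-17). No other α line had a library above 0.897 CPM, and αMut2 was lower than αWT (-2.08, SE 0.48, adjusted p = 0.00124). MAGEB2 and MAGEB1, which neighbour each other on Xp, were low in αRes3 instead. MAGEB2 had 7.61, 7.93, 7.37 and 8.87 CPM in αRes3, against 93.9, 102 and 104 CPM in αWT (log2 fold change -3.67, SE 0.54, adjusted p = 2.72e-07). MAGEB1 had 6.59, 6.60, 6.30 and 7.03 CPM, against 29.4, 41.6 and 52.3 (log2 fold change -2.64, SE 0.35, adjusted p = 4.02e-08). Neither gene's αRes3 libraries overlapped αWT. αRes4 had 55.7 ± 3.73 CPM of MAGEB2 and 24.3 ± 2.67 CPM of MAGEB1 (SD, n = 4). With numbers 1 to 4 alone, MAGEB2 was called lower than αWT in αMut1 (-1.53), αMut2 (-0.89) and αRes4 (-0.88) as well. In αRes1 MAGEB2 was called lower with numbers 5 to 8 (-2.23) and higher with numbers 1 to 4 (0.50). αRes3 was not tested against αRes4. MAGEB1 shares 88 bases of exon with MAGEB4 on the same strand. MAGEB2 in αRes2 was also called lower (-0.94), with an adjusted p of 0.0503 without replicate 3. MAGEB1 was called lower in αMut1, αRes1, αRes2 and αRes4 too, by -0.72 to -0.81. In αMut1 the call was lost with numbers 5 to 8 (-0.0250, adjusted p = 0.770), in αRes1 the value with numbers 1 to 4 (-0.37) lay under the threshold, and in αRes4 the call was lost without replicate 1, 2 or 4. MAGEB17, near the limit of detection, was called higher in αMut1, αRes1 and αRes4, where its mean was 2.09 CPM against 0.303 in αWT, and lower in αMut2 (-4.05, SE 1.12, adjusted p = 0.00671). A long noncoding RNA covers 254 of its bases on the other strand. In αMut1 the sign of MAGEB17 turned to -1.003 with numbers 1 to 4.

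MAGEA3, MAGEA6 and MAGEA12 are near copies in 1 cluster, whose type of MAGE protein binds ubiquitin ligases, and they moved together. In αRes3 MAGEA3 had 65.2, 64.6, 71.1 and 57.0 CPM and in αRes4 57.7, 48.8, 63.3 and 66.95 CPM, against a lowest, median and highest of 113, 136 and 140 CPM in αWT, without overlap. Log2 fold changes of the 3 genes lay between -1.04 and -1.20 in αRes3 and between -0.91 and -1.33 in αRes4, each called. They were called lower in αMut1 as well (-0.56 to -0.72), and MAGEA12 in αRes1 (-0.53), but in these 2 lines the number sets part. In αMut1 the fold change of MAGEA3 was 0.08 with numbers 5 to 8 alone, that of MAGEA6 was 0.000874 and that of MAGEA12 -0.22. In αRes1 that of MAGEA12 was -0.00606 with numbers 1 to 4 alone, while MAGEA3 (-1.10) and MAGEA6 (-1.23) were called lower with numbers 5 to 8. MAGEA4, which shares 153 bases with an antisense RNA, was at most 0.145 CPM in every αRes3 and αRes4 library, against 0.493 to 1.43 CPM in αWT (log2 fold change -4.11, SE 0.93, adjusted p = 0.000255 in αRes3 and -3.59, SE 0.83, adjusted p = 0.000333 in αRes4). It was called lower in αMut1 (-1.97) and αRes1 (-1.83) and higher in αRes2 (1.02, adjusted p = 0.0481). In αRes1 MAGEA4 was 0 in numbers 5 to 8 and 0.241 to 0.577 CPM in numbers 1 to 4, which alone gave no call (-0.50, adjusted p = 0.233). The call in αRes2 was lost with DESeq2 (adjusted p = 0.0988), without the filter on low counts (0.0850) and with a replicate block (0.0972), and turned to -0.09 with numbers 5 to 8. Summed over the 12 MAGEA genes, which does not depend on how counted reads were split between copies, the level was 165 ± 13.0 CPM in αRes3 and 164 ± 12.3 CPM in αRes4 (n = 4 each), against 380 ± 27.4 CPM in αWT (SD, n = 8).

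MAGEC1 fell in αRes2, αRes3 and αRes4 and in no other α clone. αRes3 had 37.4, 33.8, 35.0 and 38.7 CPM, αRes4 27.6, 26.0, 29.3 and 30.1 CPM and αRes2 between 28.8 and 41.6 CPM, against 73.8, 128 and 179 CPM (lowest, median and highest) in αWT. The 3 clones lay below every αWT library, at log2 fold changes of -1.85 (SE 0.14, adjusted p = 2.04e-13) in αRes2, -1.80 (SE 0.18, adjusted p = 9.84e-11) in αRes3 and -2.15 (SE 0.19, adjusted p = 1.84e-12) in αRes4. αMut1, their source, had 117 to 134 CPM. MAGEC2, its neighbour in the family, was called only in αMut2, as higher (146, 168, 165 and 173 CPM against 67.3 to 127 in αWT, log2 fold change 0.75, adjusted p = 0.017). That call was lost without αMut2 replicate 4 (adjusted p = 0.052) and with a replicate block (adjusted p = 0.0975), and its value fell under the threshold against αWT numbers 1 to 4 alone (0.44). In αMut1 the number sets gave calls of MAGEC2, at -0.60 with numbers 1 to 4 and 0.58 with numbers 5 to 8.

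CT55 was low in 4 α clones. αMut2 had 1.82, 1.87, 2.12 and 2.55 CPM, αRes3 5.52, 5.53, 6.25 and 5.19 CPM, αMut1 0.332, 0.863 and 6.47 CPM and αRes1 0.548, 3.54 and 8.75 CPM (lowest, median and highest), against 16.3, 19.1 and 22.8 CPM in αWT. Each lay below αWT in all libraries, with log2 fold changes of -3.17 (SE 0.60, adjusted p = 0.000132) in αMut2, -1.75 (SE 0.56, adjusted p = 0.00743) in αRes3, -2.68 (SE 0.47, adjusted p = 1.15e-05) in αMut1 and -2.17 (SE 0.43, adjusted p = 9.95e-05) in αRes1. The size differed with the number set but not the direction, at -1.54 with numbers 5 to 8 and -4.93 with numbers 1 to 4 in αMut1. αRes2 and αRes4, made from αMut1, had 15.5 ± 1.72 CPM (n = 8) and 14.5 ± 0.613 CPM (n = 4), against 2.95 ± 2.86 CPM in αMut1 (SD, n = 7). Both were called higher than αMut1, by 2.39 (SE 0.47, adjusted p = 0.000255) and 2.29 (SE 0.52, adjusted p = 0.000376). With numbers 1 to 4 alone each αRes clone was called higher than αMut1, by 3.45 in αRes1, 4.52 in αRes2, 3.08 in αRes3 and 4.44 in αRes4. With numbers 5 to 8 alone αRes2 was called higher (1.40) and αRes1 lower (-2.91).

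PAGE genes encode small disordered proteins. PAGE1 had 124, 161, 148 and 163 CPM in αMut2, 122, 134, 137 and 113 CPM in αRes3 and 128, 118, 124 and 107 CPM in αRes4, against 18.3, 26.7 and 39.7 CPM in αWT. These 3 clones lay above αWT without overlap, by log2 fold changes of 2.43, 2.19 and 2.11 (SE 0.37 each, adjusted p 4.12e-06 to 7.98e-06). In αMut1 PAGE1 was 11.0 to 13.1 CPM in numbers 5 to 7 and 80.3 to 101 CPM in numbers 1 to 4, so its call as higher (1.05, adjusted p = 0.00886) turned to -0.69 with numbers 5 to 8. PAGE1 was called lower in αRes2 (-0.81, adjusted p = 0.0497), but not without replicate 3 (adjusted p = 0.0691). PAGE4, known from prostate, had 10.0, 9.17, 9.11 and 8.74 CPM in αRes4, against 0.343, 0.945 and 1.41 in αWT (log2 fold change 3.41, SE 0.29, adjusted p = 1.23e-12). It was called higher in αRes3 (2.11) and αRes2 (1.21) too. PAGE2 was called higher in αMut1 (1.70), αRes1 (1.64) and αRes4 (2.14) and lower in αMut2 (-1.83), with no line mean above 2.31 CPM. PAGE2B was called lower in αMut2 (-1.12) and αRes2 (-0.95), but not with numbers 5 to 8 of αRes2 (adjusted p = 0.063). PAGE5 was called in no α clone when all libraries were used, but the number sets gave calls. In αMut1 it had 18.03 to 20.3 CPM in numbers 5 to 7 and 89.8 to 110.1 CPM in numbers 1 to 4, and in αRes1 79.1 to 85.3 CPM in numbers 5 to 8 and 11.8 to 20.7 CPM in numbers 1 to 4, against 57.2 to 79.0 CPM in αWT. With numbers 5 to 8 the fold change in αMut1 was -1.71 (adjusted p = 1.29e-13) and with numbers 1 to 4 0.52 (adjusted p = 0.00312), while in αRes1 it was -2.27 (adjusted p = 1.27e-12) with numbers 1 to 4. PAGE5 was also called higher in αRes2 with either set (0.51 with numbers 5 to 8 and 0.82 with numbers 1 to 4) and in αRes4 (0.81) against αWT numbers 1 to 4.

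The other called genes in the α series were SSX1, CT45A10 and GAGE genes. SSX1 was called higher in αMut1 (0.64), αMut2 (0.87), αRes1 (0.55), αRes2 (0.72) and αRes4 (0.62), against a mean of 132 ± 26.9 CPM in αWT (SD, n = 8), in which numbers 5 to 8 had 102 to 113 CPM and numbers 1 to 4 had 153 to 160. The value fell under the threshold with numbers 1 to 4 in αRes1 (0.47) and αRes4 (0.38), and with a replicate block in αRes4 (0.45). CT45A10 was called lower in αMut1 (-0.86), αRes1 (-0.66), αRes3 (-1.81) and αRes4 (-2.03). In αRes1 its fold change was 0.07 with numbers 1 to 4 alone. GAGE1, GAGE2A and GAGE13 were called lower in αRes3 (-1.12, -0.66 and -0.57), GAGE13 at -0.49 against αWT numbers 1 to 4 alone. With single number sets GAGE1 was also called lower in αMut1 (-1.21 with numbers 5 to 8), αRes1 (-1.06 with numbers 1 to 4) and αRes4 (-0.56 with numbers 1 to 4). GAGE10 was called higher in αRes4 (0.53), but not without αRes4 replicate 1 (adjusted p = 0.136), and GAGE1 higher in αMut2 (0.82), but not with any 1 of its 4 libraries left out (adjusted p 0.0613 to 0.117). Summed over the 13 GAGE genes, the level was 61.6 ± 1.002 CPM in αRes3 (n = 4), against 113 ± 25.4 CPM in αWT (SD, n = 8).

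**Figure D3:**
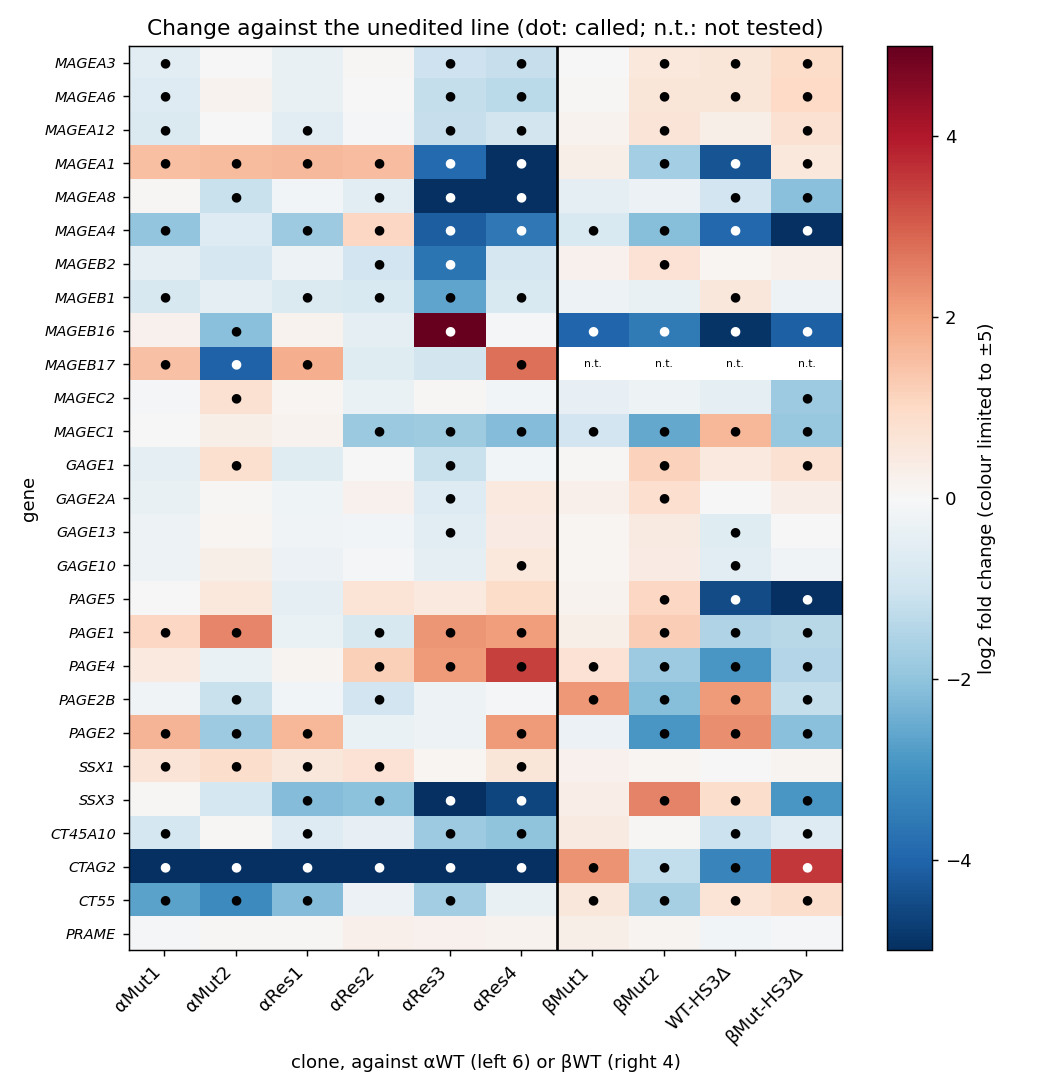
Log2 fold change of the 27 expressed family genes in each α clone against αWT and each β clone against βWT, as colour limited to ±5, with a dot where the gene was called and n.t. where it was not tested. CTAG2 was called lower in all 6 α clones and MAGEB16 in all 4 β clones, while PRAME was called in none.

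Genes of the X chromosome outside the families were lower in αRes3 and αRes4 too, but the medians of X and of the families did not keep the same order across the α clones. Over 721 tested genes of X outside the families, the median log2 fold change against αWT was -0.36 in αRes3 (104 higher, 282 lower) and -0.19 in αRes4 (141 higher, 222 lower), against -0.04 and 0.01 over all genes. Without the pseudoautosomal genes it was -0.39 and -0.20 (706 genes). Of all genes, 20.1% were called higher and 18.9% lower in αRes3, and 23.3% higher and 17.2% lower in αRes4. The family median was -0.98 in αRes3 and -0.25 in αRes4. In αRes2 the family median was lower than in αRes4, at -0.31. That of X was 0.07 there (102 higher and 32 lower, against 12.0% and 6.67% of all genes). In αRes1 the medians of the families and of X were -0.27 and -0.04. Within 1 Mb of MAGEA1, 24 of 38 tested genes outside the families were called lower in αRes3 (18.9% of all genes) and 1 higher (20.1%), with a median of -0.94. In αRes4 these were 19 lower (17.2%) and 3 higher (23.3%), with a median of -0.61. MAGEA1 was called higher in αMut1 and αRes1. There the same neighbours were 13 lower (7.35%) and 2 higher (15.4%) in αMut1, with a median of -0.40. In αRes1 they were 10 lower (7.41%) and 2 higher (13.0%), with a median of -0.43. Around CTAG2, 1 of 49 genes was lower in αMut2 (9.43%) and 1 higher (6.62%), with a median of -0.03. In αRes4 29 were lower (17.2%) and 2 higher (23.3%), with a median of -0.71. How much of the family genes' change goes with their surroundings was not tested.

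Against αMut1, the source of the αRes clones, 2 family genes changed in αRes1 (against 2.96% of all genes), with 0 higher (0.400%) and 2 lower (2.56%). In αRes2 13 changed (8.96%), 6 higher (2.72%) and 7 lower (6.24%). In αRes3 it was 13 (20.6%), 3 higher (9.69%) and 10 lower (10.9%), and in αRes4 13 (32.5%), 6 higher (18.5%) and 7 lower (14.0%). The 2 in αRes1 were SSX3 (-2.26) and PAGE1 (-1.40). With numbers 5 to 8 alone the SSX3 call was lost (-0.33, adjusted p = 0.231) and PAGE1 turned to 0.64. With numbers 1 to 4 alone, 19 changed in αRes1 (29.5% of all genes), 14 higher (9.01%) and 5 lower (20.5%), and with numbers 5 to 8 alone 21 did (22.0%), 7 higher (12.4%) and 14 lower (9.62%). The share of all genes called thus moved with the number set as well, and the comparison of αRes1 with αMut1 depends on which libraries are set against each other. CTAG2 stayed under 1 CPM in all libraries of the αRes clones. Its log2 fold change against αMut1 was -0.17 (SE 0.60, adjusted p = 0.918) in αRes1, -0.53 (SE 0.67, adjusted p = 0.643) in αRes2 and -2.25 (SE 1.08, adjusted p = 0.1098) in αRes3. In αRes4 it was called lower, by -3.66 (SE 1.30, adjusted p = 0.0179), a call lost without αRes4 replicate 1 (adjusted p = 0.0521) or 4 (0.0511). The value in αRes1 joined 4.55 (adjusted p = 3.22e-07) with numbers 1 to 4 and -6.49 (adjusted p = 5.65e-07) with numbers 5 to 8, each against libraries or from libraries at or near 0 counts. αMut2 also differed from αMut1, in 13 of 28 family genes (against 21.9% of all genes), 7 higher (5.78%) and 6 lower (16.1%), although both carry the same kind of edit. As αMut2 has numbers 1 to 4 only, the parting of number sets within αMut1 enters this comparison. The pair was not tested with numbers 1 to 4 alone. CTAG2, CT55, MAGEA1, SSX1 and PAGE1 were called in the same direction in both αMut clones against the αWT libraries they share.

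In the β series, 7 of 28 tested family genes changed in βMut1 against βWT (20.3% of all genes), 4 higher (13.0%) and 3 lower (7.28%). In βMut2 18 changed (28.7%), 9 higher (15.0%) and 9 lower (13.7%). In WT-HS3Δ 21 changed (50.2%), 8 higher (22.8%) and 13 lower (27.5%), and in βMut-HS3Δ 20 (48.1%), 7 higher (22.0%) and 13 lower (26.1%). The median of the 28 genes lay between -0.41 and 0.14, against -0.03 to 0.02 over all genes. These 4 comparisons share the βWT libraries. No β line has replicate numbers above 4.

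PAGE5 (chrX:55220346-55224108) was low in both clones that lack HS3. It had 3.37, 2.97, 4.27 and 2.87 CPM in WT-HS3Δ and 0.366, 0.711 and 0.711 CPM in βMut-HS3Δ, against 56.9, 77.4, 86.6 and 75.4 CPM in βWT. The groups lay far apart, with log2 fold changes of -4.45 (SE 0.22, adjusted p = 1.51e-12) and -6.94 (SE 0.30, adjusted p = 4.23e-13). βMut2 had more, at 106, 162, 165 and 177 CPM (1.04, SE 0.18, adjusted p = 0.000109). βMut-HS3Δ was lower than βMut1, which had 57.1, 86.0, 102 and 90.6 CPM, by -7.13 (SE 0.31, adjusted p = 3.24e-13). Of the 10 tested genes outside the families within 1 Mb of PAGE5, 4 were called higher in WT-HS3Δ (22.8% of all genes) and 2 lower (27.5%). In βMut-HS3Δ 4 were called higher (22.0%) and 1 lower (26.1%). PAGE1 was also low in both clones, by -1.52 and -1.39, and PAGE4 by -2.91 and -1.46.

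CTAG2, low in all α clones, went in both directions in the β clones. It had 118, 117 and 126 CPM in βMut-HS3Δ, 48.8, 49.0, 53.3 and 45.5 CPM in βMut1, 3.98, 4.37, 4.47 and 4.85 CPM in βMut2 and 1.21, 1.03, 1.04 and 0.905 CPM in WT-HS3Δ, against 9.82, 10.2, 11.0 and 10.1 CPM in βWT. No pair of these 5 lines overlapped. Log2 fold changes against βWT were 3.55 (SE 0.08, adjusted p = 4.25e-17), 2.25 (SE 0.07, adjusted p = 7.59e-14), -1.22 (SE 0.08, adjusted p = 6.37e-10) and -3.29 (SE 0.10, adjusted p = 1.45e-15) in that order. The clones βMut2 and βMut1, with the same G4 mutated, differed by -3.48 (SE 0.08, adjusted p = 2.64e-16). They went in opposite directions from βWT also in CT55 (difference -2.22), PAGE2B (-4.27) and PAGE4 (-2.51), each called.

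MAGEA1, MAGEA4, MAGEA8 and MAGEB16 were low in 1 or more β clones. MAGEA1 had 1.27, 2.12, 1.35 and 1.28 CPM in WT-HS3Δ, against 25.1, 31.1, 32.5 and 30.1 CPM in βWT (log2 fold change -4.30, SE 0.14, adjusted p = 4.66e-15). In βMut-HS3Δ, which lacks HS3 as well, it had 37.7, 43.1 and 46.4 CPM (0.51, SE 0.11, adjusted p = 0.000577), and that call falls under the threshold of 0.5 without βMut-HS3Δ replicate 3 or βWT replicate 1. βMut2 had 8.46 to 9.67 CPM (-1.70). MAGEB16 was at most 0.181 CPM in each of the 15 edited β libraries, against 1.22, 1.35, 1.55 and 1.55 CPM in βWT, and was called lower in all 4 clones, by -3.53 to -4.90. MAGEA4 was called lower in all 4 as well (-0.75 in βMut1, -2.11 in βMut2, -3.93 in WT-HS3Δ and -5.85 in βMut-HS3Δ), at 0 in 2 of 3 βMut-HS3Δ libraries, against 1.66 to 2.18 CPM in βWT. MAGEA8 was called lower in WT-HS3Δ (-0.97) and βMut-HS3Δ (-2.09).

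SSX3 and the MAGEC genes also parted the β clones. SSX3 had 50.4, 86.1, 79.6 and 93.1 CPM in βMut2 and 1.28, 1.79 and 2.29 CPM in βMut-HS3Δ, against 9.08, 15.3, 16.1 and 14.4 CPM in βWT. βMut2 lay above and βMut-HS3Δ below all βWT libraries, by 2.49 (SE 0.22, adjusted p = 4.59e-08) and -2.93 (SE 0.29, adjusted p = 4.89e-08). In WT-HS3Δ SSX3 was called higher (0.89). MAGEC1 had 129, 96.4, 104 and 131 CPM in WT-HS3Δ and 7.03, 6.11, 5.85 and 5.43 CPM in βMut2, against 48.9, 31.6, 32.5 and 33.4 CPM in βWT (1.65, SE 0.15, adjusted p = 1.63e-08 and -2.58, SE 0.17, adjusted p = 7.00e-10). Without overlap it was highest in WT-HS3Δ, and it was called lower in βMut-HS3Δ (-1.88) and βMut1 (-0.94). MAGEC2 had 30.0, 31.8 and 33.7 CPM in βMut-HS3Δ, against 95.8, 114, 123 and 113 CPM in βWT (-1.81, SE 0.08, adjusted p = 8.02e-13), and was called in no other β clone.

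CT55, MAGEA3 and MAGEA6 were higher in the HS3 clones. CT55 had 38.6, 38.4, 38.2 and 36.5 CPM in WT-HS3Δ and 42.3, 41.8 and 46.3 CPM in βMut-HS3Δ, against 21.7, 24.4, 23.3 and 24.2 CPM in βWT (0.70, adjusted p = 1.65e-08 and 0.89, adjusted p = 1.48e-09). βMut1 was higher too (0.57), and βMut2 lower, with 8.12, 7.40, 6.85 and 7.42 CPM (-1.65, adjusted p = 1.82e-12). MAGEA3 had 197, 209 and 208 CPM in βMut-HS3Δ, against 104, 107, 113 and 112 CPM in βWT (0.91, SE 0.05, adjusted p = 3.37e-11). It and MAGEA6 were called higher in βMut2 (0.53 and 0.59) and WT-HS3Δ (0.59 each), and MAGEA12 in βMut2 (0.65) and βMut-HS3Δ (0.76), as was MAGEA6 there (1.01). The call of MAGEA3 in βMut2 stands near the threshold of 0.5 and drops under it without βMut2 replicate 1, 2 or 3.

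The remaining calls in β clones were in GAGE, CT45A, PAGE and MAGEB genes and in MAGEA9B. GAGE1 was called higher in βMut2 (1.15) and βMut-HS3Δ (0.77), and GAGE2A in βMut2 (0.86). GAGE13 (-0.59) and GAGE10 (-0.51) were called lower in WT-HS3Δ, and GAGE10 fell under the threshold of 0.5 without WT-HS3Δ replicate 1 or 4 or βWT replicate 2 or 3. CT45A10 was called lower in WT-HS3Δ (-1.07) and βMut-HS3Δ (-0.63). CT45A5 was called lower in WT-HS3Δ (-0.74) and βMut-HS3Δ (-0.82) and MAGEA9B in WT-HS3Δ (-0.96), all at line means of at most 0.547 CPM. Each of these 3 calls was lost without 1 or more single libraries: CT45A5 in WT-HS3Δ without its replicate 3 or βWT replicate 4, CT45A5 in βMut-HS3Δ without its replicate 1 or 2 or βWT replicate 4, and MAGEA9B without WT-HS3Δ replicate 2 or 4 or βWT replicate 1 or 3. PAGE1 was called higher in βMut2 (1.21), MAGEB2 higher in βMut2 (0.70) and MAGEB1 higher in WT-HS3Δ (0.58). PAGE2 was called lower in βMut2 (-2.92) and βMut-HS3Δ (-2.08) and higher in WT-HS3Δ (2.33). PAGE2B was called higher in βMut1 (2.15) and WT-HS3Δ (2.15) and lower in βMut2 (-2.12) and βMut-HS3Δ (-1.19). PAGE4 was called lower in βMut2 (-1.80) and higher in βMut1 (0.71, adjusted p = 0.0465), the βMut1 call being lost when βMut1 replicate 2, 3 or 4 or βWT replicate 1, 2 or 4 was left out.

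In the comparison of βMut-HS3Δ with βMut1, 16 of 28 family genes changed (against 53.0% of all genes), 5 higher (23.1%) and 11 lower (29.8%). CTAG2 was higher by 1.29 (SE 0.07, adjusted p = 1.47e-11). SSX3 (-3.27), MAGEA4 (-5.10), MAGEC2 (-1.40) and PAGE2B (-3.34) were among the lower ones. The clone-to-clone difference between βMut2 and βMut1 took in 15 of 28 (against 25.8% of all genes), 7 higher (10.6%) and 8 lower (15.2%).

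The unedited lines were not alike either. Between αWT and βWT, fitted together, 11 of 29 tested family genes changed, against 48.1% of all 18196 genes tested, with 3 higher (25.0%) and 8 lower (23.1%). MAGEC1 had 73.8, 128 and 179 CPM in αWT (lowest, median and highest) and 48.9, 31.6, 32.5 and 33.4 CPM in βWT, without overlap (log2 fold change 1.64, SE 0.26, adjusted p = 7.46e-05). PAGE2B (1.02) and PAGE2 (0.81) were the other genes called higher in αWT. MAGEB16 (-1.78), MAGEA8 (-1.48), CT45A10 (-1.46), MAGEA4 (-1.44), GAGE13 (-0.96), PAGE1 (-0.96), GAGE10 (-0.94) and SSX1 (-0.57) were lower in αWT. SSX1 fell under the threshold with αWT numbers 1 to 4 alone (-0.32) and with a replicate block (-0.33). With αWT numbers 1 to 4 alone, MAGEB1 (0.60) and GAGE1 (0.68) were called higher and CT45A5 (-0.86) lower. The α and β libraries are separate sets, and a difference between the sets cannot be told apart from one between the lines.

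Among the genes that only share a name, SSX2IP, a centrosome and adhesion protein whose product binds SSX proteins, was called lower in αMut1 (-0.66), αRes1 (-0.80), αRes2 (-0.53) and αRes3 (-0.62) and in no β clone. CTAGE1 was called lower in αRes1 (-0.69), αRes3 (-0.83), WT-HS3Δ (-1.02) and βMut-HS3Δ (-1.08), and the other 5 CTAGE genes passed no filter.

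Of 55 other cancer-testis genes outside the families, 54 were counted. In WT-HS3Δ 0 of 21 tested were called higher (22.8% of all genes) and 13 lower (27.5%), with a median of -0.79, and in βMut-HS3Δ 2 higher (22.0%) and 10 lower (26.1%), with a median of -0.41. PASD1, a PAS domain gene of the X chromosome, fell to 1.55 ± 0.384 CPM in WT-HS3Δ, against 17.0 ± 1.24 CPM in βWT (SD, n = 4 each; -3.45, SE 0.11, adjusted p = 4.73e-15). In αRes3 it had 0.0242 ± 0.0485 CPM (n = 4), against 11.7 ± 1.78 CPM in αWT (SD, n = 8; -8.51, SE 0.51, adjusted p = 2.32e-17). MAEL, which acts in silencing transposons in germ cells, had 162 ± 18.5 CPM in βMut-HS3Δ (n = 3), against 1.04 ± 0.103 CPM in βWT (SD, n = 4), a log2 fold change of 7.27 (SE 0.21, adjusted p = 1.58e-15). In the 6 α clones 3 to 6 of 25 were called higher (6.62% to 23.3% of all genes) and 1 to 5 lower (6.67% to 18.9%).

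Genes of DNA methylation and of repressor complexes, 36 in the list and 35 tested, changed least in αMut2 and most in αRes4. None was called in αMut2 (16.1% of all genes changed), and 1 was called higher (23.3% of all genes) and 21 lower (17.2%) in αRes4 against αWT, with a median of -0.59. DNMT3A, which sets new DNA methylation, was the 1 gene called higher in αRes4 and so went against the 21 lower ones of the list there. It was higher in αRes3 (49.5 ± 1.72 CPM, n = 4) and αRes4 (36.2 ± 5.02 CPM, n = 4) than in αWT (20.1 ± 1.51 CPM, SD, n = 8), by 1.30 (SE 0.08, adjusted p = 2.08e-17) and 0.85 (SE 0.08, adjusted p = 8.29e-12). In WT-HS3Δ it was lower instead, with 13.1 ± 0.978 CPM against 35.7 ± 4.21 CPM in βWT (SD, n = 4 each; -1.45, SE 0.13, adjusted p = 5.93e-09). Their part in the level of the family genes was not tested. Of 10 MAGE genes outside the cancer-testis families, 6 were tested in the α series, with 2 to 3 called higher and 0 lower in each α clone (6.62% to 23.3% and 6.67% to 18.9% of all genes), and 5 in the β series, with 0 to 1 higher and 0 to 3 lower in a clone (13.0% to 22.8% and 7.28% to 27.5%).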

How the data were processed

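Poly(A) RNA from 12 K562 lines was sequenced in 62 libraries by the authors, who trimmed reads with cutadapt, aligned them to hg38 with bwa, marked duplicates and counted them per gene with featureCounts against GENCODE. The submitters' processing notes name SAMtools 1.15.1 and R 4.3.0. The deposited values are whole-number read counts per gene, with no normalization, and the options of featureCounts, among them strand and multiple matches, are not given in the sources used here. Gene names came from GENCODE 44 (62625 of 62696 IDs matched). Promoter sequences came from RefSeq (GRCh38.p14).

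Counts were fitted with the quasi-likelihood test of edgeR 4.0.16 in R 4.3.3, after TMM scaling and a filter of at least 10 counts per library on average, with 43 α libraries (18247 genes), 19 β libraries (17535 genes) and the 12 libraries of αWT and βWT (18196 genes) in 3 separate fits. A gene was called at a Benjamini-Hochberg adjusted p below 0.05, over all genes of the fit, and an absolute log2 fold change above 0.5. Levels are CPM, counts per 1000000 of the TMM-scaled library total. Of the 72 family genes, 42 passed the filter in no fit. Counting error limits low levels, and the floor for a line without counts was 3 counts over its libraries. Library totals of 4270215 to 48671570 counts set that precision.

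Named are all family genes with a line mean of at least 1 CPM and all called against the unedited line, and up to 4 genes of each other list by smallest adjusted p. The family genes and the lists (markers of K562, germ, lymphoid, epithelial and fibroblast cells, other cancer-testis genes, DNA methylation and repressor genes, other MAGE genes) were chosen with earlier results of these data known. Alternatives were DESeq2 1.42.0, its size factors in edgeR, no filter, a replicate block, each replicate left out, and the number sets alone. Leaving out αRes2 replicate 3 was added after seeing the data. The scripts were tested on simulated data.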

Additional observations from a re-analysis of the deposited data

Results flagged for a closer look

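In single libraries, 18 of 297 values of an expressed family gene in a line stood apart from the other libraries of that line by a gap that chance gives in about 1 in 20 groups. In αRes2, replicate 3, the shallowest library, had the highest PAGE5 (185 CPM) and SSX1 (301 CPM) and the lowest MAGEA3 (79.9 CPM) and MAGEA6 (54.4 CPM), while replicate 4 had the highest CT45A10 (19.4 CPM) and GAGE2A (68.9 CPM). In βMut2, replicate 1 had the highest MAGEB1 (28.5 CPM) and the lowest MAGEB2 (182 CPM) and PAGE1 (89.6 CPM). The highest value of its line was also held by αMut1 replicate 2 for MAGEB16 (0.897 CPM), αRes3 replicate 4 for PRAME (1678 CPM), αRes4 replicate 3 for CTAG2 (0.0477 CPM), αRes4 replicate 1 for GAGE10 (6.73 CPM), WT-HS3Δ replicate 2 for MAGEA1 (2.12 CPM) and βWT replicate 1 for MAGEC1 (48.9 CPM). The lowest value of its line was held by αMut2 replicate 1 for CT45A10 (14.9 CPM), αRes4 replicate 4 for GAGE13 (6.82 CPM) and αWT replicate 8 for MAGEA3 (113 CPM).

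Pairs of clones with the same kind of edit were called in opposite directions against their unedited line in 6 family genes, and edgeR tested each difference itself. The share of all genes tested for which this held was not counted. αMut2 minus αMut1 gave a log2 difference of -5.52 for MAGEB17 (adjusted p = 8.02e-05) and -3.53 for PAGE2 (adjusted p = 3.11e-07). With numbers 1 to 4 alone, the only numbers of αMut2, MAGEB17 was lower than αWT in αMut1 too (-1.003, adjusted p = 0.0444). Its call in αMut1 was also lost with a replicate block (adjusted p = 0.0708). βMut2 minus βMut1 gave -3.48 for CTAG2 (adjusted p = 2.64e-16), -2.22 for CT55 (adjusted p = 1.42e-14), -4.27 for PAGE2B (adjusted p = 2.38e-09) and -2.51 for PAGE4 (adjusted p = 8.13e-06). The PAGE4 call in βMut1 was lost when certain single libraries were left out, as given above.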

How the results depend on the processing

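Every count of called family genes kept within 1.5 times its value under the alternatives except that of αRes1 against αMut1, which was 2 with all libraries, 19 with numbers 1 to 4 and 21 with numbers 5 to 8. Over the 449 pairs of a tested family gene and a comparison, called or not, DESeq2 ended 6 calls and added 6. Its size factors ended 3 and added 2, and no filter 12 and 1. Leaving out single replicates ended 48 and added 16 over 1771 such pairs. None of these fits turned a direction. Numbers 1 to 4 alone ended 16 and added 45 over 298 pairs, besides the turned directions given below. Numbers 5 to 8 alone ended 8 and added 25 over 135 pairs, again besides those. No label says that a replicate number marks a shared batch, so the samples were not treated as paired. Deviations of same-numbered α libraries had a median correlation of 0.06, against -0.00654 for other numbers (44 of 105 pairs over 0.1, and 4 of 43 libraries closest to their own number). In the β series it was 0.33, against -0.13 (31 of 36 pairs over 0.1, the lowest at -0.21, and 10 of 19 libraries). A fit with the replicate number as a block ended 8 calls and added 13 over the 449 pairs. Among those ended was MAGEB17 in αMut1, at 1.29 (adjusted p = 0.0708) under the block. Low depth limits genes near 0 counts, and near-identical copies limit genes with few unique stretches.

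With numbers 5 to 8 alone the direction turned, the cause not being tested, in αMut1 against αWT for MAGEA3 (0.0805), MAGEA6 (0.000874), MAGEC1 (0.58), MAGEC2 (0.58), PAGE1 (-0.69), PAGE2B (0.94) and SSX3 (-1.23). In αRes1 against αMut1 it turned for CT45A10 (-1.12), CT55 (-2.91), GAGE1 (1.24), GAGE10 (0.58), MAGEA12 (-1.13), MAGEA3 (-1.19), MAGEA4 (-6.21), MAGEA6 (-1.23), MAGEB1 (-1.59), MAGEB17 (-2.89), MAGEB2 (-2.57), MAGEC2 (-1.01), PAGE1 (0.64), PAGE2B (-0.58) and PAGE5 (2.13). The same set turned MAGEB17 in αRes1 against αWT (-0.25), SSX3 in αRes2 against αMut1 (0.0354) and MAGEA4 in αRes2 against αWT (-0.0902). With numbers 1 to 4 alone it turned in αMut1 against αWT for MAGEB17 (-1.003) and PAGE5 (0.52), in αRes1 against αMut1 for CTAG2 (4.55) and PAGE2 (1.44), in αRes1 against αWT for CT45A10 (0.0700) and MAGEB2 (0.50), in αRes2 against αMut1 for CTAG2 (3.88), MAGEB17 (0.16), MAGEB2 (0.62) and PAGE2B (0.0219), in αRes2 against αWT for MAGEA8 (0.0612), in αRes3 against αMut1 for MAGEB17 (0.00114) and PAGE2B (0.51), and in αRes4 against αMut1 for CTAG2 (0.25) and MAGEB2 (0.65).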
